A study of Mus musculus with 6 samples.

Results

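The untreated tumor cells described here belong to a single named clone of mouse pancreatic tumor cells, 6419c5, and they make up 4 of the 6 samples of the series. They were chosen by their sample titles, which number them 1 to 4, and by a treatment label of control. The cells had grown as tumors under the skin of C57BL/6 mice, were sorted from those tumors, and had their RNA purified with the RNeasy micro kit before sequencing by a commercial provider. The other 2 samples, from tumors treated with the combination named GAFCP (gemcitabine, abraxane, a CD40 agonist and antibodies that block PD-1 and CTLA-4), were used only for values set beside those of the controls. All 6 samples share the clone and the host strain. The labels give neither the genotype of the clone, nor the markers used in the sort, nor the age or sex of the mice. They also do not say whether the 4 control libraries came from separate mice, so the spread between them may be technical. A single clone grown under the skin, away from the pancreas, is a limited model of the disease.

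Pancreatic ductal carcinoma arises from the exocrine epithelium, and its cells typically signal through the RAF, MEK and ERK kinases. The tumor cells range from a classical type, with genes of gut and stomach epithelium and the transcription factor Gata6, to a basal type, with keratins and secreted factors of squamous epithelium. Many such cells also express mesenchymal genes, which are linked to migration and invasion. From earlier published work, this clone is known as a line from genetically engineered mice that carry a Cre recombinase under the Pdx1 promoter. The labels do not state this.

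Expression was measured as TPM, a relative transcript abundance in which the reads assigned to a gene are divided by its length and scaled to a total of 1000000 in each library. Levels of different genes can therefore be compared within a library, but with caution for very short genes. Values also drifted with transcript length in library 3, and both limits are described below. The depth of sequencing is unknown, because TPM keeps no depth, and no counting interval can be given. Values are listed in the order of libraries 1, 2, 3 and 4, and errors are SD over these 4 libraries. Of 24493 genes in the table, 12594 (51.4%) reached 1 TPM in every control library, 10680 stayed under 1 TPM in all 4, and 5136 of these were listed at 0 throughout. The median level was 1.80 TPM over all genes and 18.1 TPM over the genes that reached 1 TPM in every library. A level of at least 100 TPM was reached on average by 1307 genes and 1000 TPM by 133. Between 13015 and 13264 genes reached 1 TPM in a single library. The share of 51.4% is the one to set beside each count of listed genes given below.

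A set of tissue genes divided the 4 libraries into 2 pairs, and this comes before the other results because it touches some of them. No label gives the split, so no test of it was made. Library 3 differed in a further way, since above 300 bases its values were lower for longer transcripts: the median log2 ratio of library 3 to the mean of the 4 was -0.02 for transcripts of 300 to 600 bases and -0.14 for those over 5000 bases, where library 1 gave -0.02 and 0.05. The 125 genes of up to 300 bases lay outside this order at -0.14 in library 3. Over the 8426 genes that averaged 10 TPM or more, Pearson's r on log2(TPM + 1), taken over genes rather than over samples, was 0.9925 between libraries 1 and 2 and 0.9932 between libraries 3 and 4. For library pairs taken across the split it was 0.9849 to 0.9863. The 8426 genes include some, such as Alb and Mup7, that averaged 10 TPM only through libraries 1 and 2. The part of such genes in this gap in r was not tested. The typical gene did not divide the libraries in this way: the median absolute log2 difference was 0.0653 between libraries 1 and 2 and 0.0903 between libraries 3 and 4, but 0.0546 between libraries 1 and 4 and 0.0587 between libraries 2 and 4. Libraries 1 and 2 both lay above libraries 3 and 4 for 2871 of these genes (34.1%), and both lay below for 458 (5.44%). This split depends on the scaling. Under median-of-ratios scaling, which sets the median gene equal in all libraries, the same counts were 1291 above (15.3%) and 1984 below (23.6%). Most gaps were small. Only 21 genes (0.249%) were at least 1.5-fold apart with libraries 1 and 2 higher, and 4 (0.0475%) with libraries 3 and 4 higher, the fold being the lower value of the higher pair over the higher value of the lower pair.

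The genes that set libraries 1 and 2 apart were mostly genes typical of differentiated tissues such as liver. Among 12945 genes at 1 TPM or more in both libraries 1 and 2, 84 (0.649%) were at least 4-fold above both of libraries 3 and 4, and 54 of the 84 were listed at 0 in libraries 3 and 4. They comprised 21 plasma carriers and apolipoproteins of the liver, 15 liver enzymes and lipid-binding genes, 13 major urinary proteins, 11 defensins, 6 genes of myelin and neurons, 3 of intestine, 2 of fat, 7 microRNA genes, 4 genes with predicted names and 2 others. The tissue groups were drawn up after these values were seen, so their counts are a description only. In the opposite direction 16 of 12787 genes (0.125%) were found, 14 of them microRNA genes. The other 2 were Ckm, the creatine kinase of muscle, and Myh6, a heart myosin.

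Alb encodes serum albumin, the main plasma protein made by hepatocytes (chromosome 5, 90460897 to 90476602 on GRCm38). It stood at 29.9, 43.7, 0.228 and 0.235 TPM in the 4 libraries, high in the first pair and near 0 in the second. Mup7, one of the major urinary proteins that the mouse liver secretes as pheromone carriers, was at 57.5, 57.04, 0 and 0 TPM. Summed over all 21 genes of that family the level was 244, 249, 0 and 0.122 TPM, and single members may exchange reads because the genes are nearly identical. Fabp1, the fatty acid carrier of liver and gut, was at 34.2, 21.4, 0 and 0 TPM, and Apoa2, a protein of high-density lipoprotein, at 51.7, 61.2, 3.41 and 3.78 TPM. In each of these genes libraries 1 and 2 lay far above the other pair. The lack of overlap follows from the 4-fold rule, since the single genes named here are among the 84.

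Some genes of other tissues followed the same pairs, while many members of their lists did not. The 27 genes of the Defa family, antimicrobial defensins of intestinal Paneth cells, summed to 91.996, 119.5, 0 and 0 TPM. Mbp, myelin basic protein, was at 48.03, 57.6, 20.6 and 23.2 TPM and so was present in both pairs. Fabp4, the fatty acid carrier of adipocytes, was at 27.4, 13.98, 2.80 and 3.06 TPM. By the 4-fold rule above, libraries 1 and 2 were higher for 6 of 14 myelin and neuronal genes and 2 of 8 adipose genes. Cnp of the former list (19.7, 22.9, 20.9 and 20.6 TPM) and Cidec of the latter (3.66, 2.61, 3.22 and 2.68 TPM) did not divide the pairs. Of 12 heart and muscle genes, 2 were higher in libraries 3 and 4 by that rule. The 16 liver enzymes and lipid-binding genes together gave 70.5, 69.9, 3.68 and 4.53 TPM, while Ckm was at 0.0627, 0, 4.82 and 4.56 TPM and Myh6 at 0, 0, 1.27 and 1.16 TPM. The source of these transcripts was not tested. The epithelial markers of the sorted cells, given further on, did not share this pattern, since their summed level was 6451, 6764, 6426 and 6563 TPM.

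**Figure D1:**
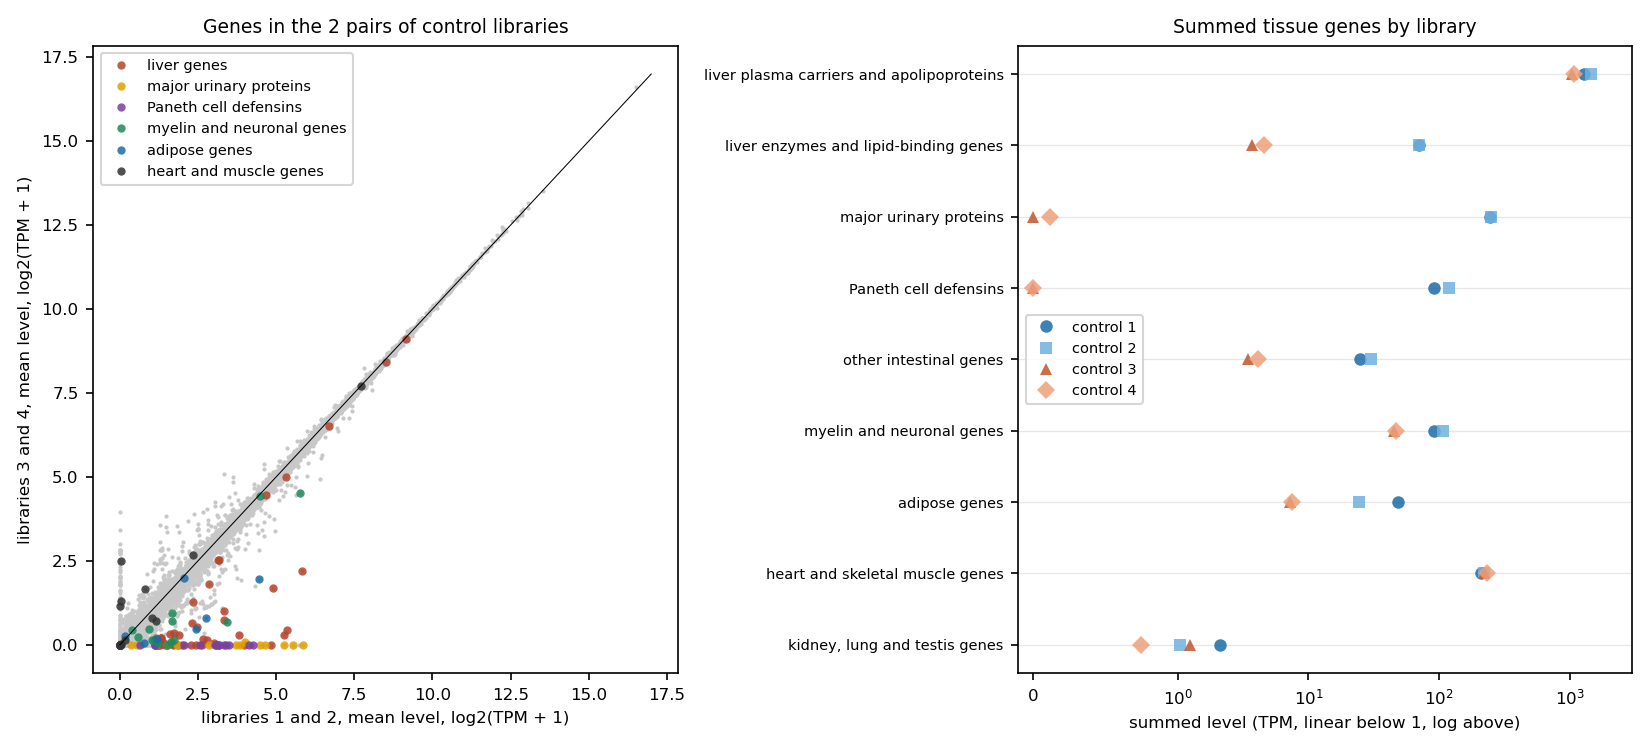
Left, each point is a gene, with its mean level in control libraries 1 and 2 on the x axis and in control libraries 3 and 4 on the y axis, both as log2(TPM + 1). Right, the summed TPM of 9 groups of tissue genes in each library, on an axis that is linear below 1 TPM and logarithmic above it. Most liver genes and the urinary protein and defensin genes lie near the x axis on the left, and on the right the sums of liver enzymes, urinary proteins and defensins in libraries 1 and 2 stand above those in libraries 3 and 4, while the heart and muscle sum of 211 to 231 TPM comes mostly from Tnnt2, at 204 to 213 TPM, and does not show the gaps of Ckm and Myh6.

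The promoters of 2 genes that differed between the pairs, and of Spp1, the most abundant protein-coding gene, are shown so that the same region can be compared across them. Each line gives the 250 bases before a RefSeq start on GRCm38.p6, 5′ to 3′ on the gene's strand. Capitals mark 2 motifs searched on both strands: TATAAA, a form of the TATA box, and CCAAT, read as ATTGG on the opposite strand. The motifs do not overlap in these windows.
Alb, chr5:90460620-90460869, plus strand: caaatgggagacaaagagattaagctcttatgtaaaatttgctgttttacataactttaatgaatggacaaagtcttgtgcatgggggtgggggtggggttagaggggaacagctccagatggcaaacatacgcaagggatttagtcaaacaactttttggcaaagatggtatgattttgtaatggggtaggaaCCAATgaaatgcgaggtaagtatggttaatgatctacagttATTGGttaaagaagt
Fabp1, chr6:71199629-71199878, plus strand: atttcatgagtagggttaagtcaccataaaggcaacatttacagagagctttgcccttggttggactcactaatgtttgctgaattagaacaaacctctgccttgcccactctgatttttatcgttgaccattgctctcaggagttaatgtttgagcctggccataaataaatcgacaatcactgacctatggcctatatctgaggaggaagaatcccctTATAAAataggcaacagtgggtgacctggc
Spp1, chr5:104434861-104435110, plus strand: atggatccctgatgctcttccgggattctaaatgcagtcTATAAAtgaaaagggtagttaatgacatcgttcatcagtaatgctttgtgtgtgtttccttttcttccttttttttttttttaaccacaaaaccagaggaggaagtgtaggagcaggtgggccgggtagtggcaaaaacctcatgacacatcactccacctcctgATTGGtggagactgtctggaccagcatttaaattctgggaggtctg

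The window of Fabp1 holds TATAAA with its first base 30 bases before the start, that of Spp1 holds it 211 bases before the start, and that of Alb has no TATAAA but 2 copies of CCAAT. RefSeq gives Spp1 a further start, and the 250 bases before it (chr5:104435942-104436191) hold neither motif. Of 32851 promoter windows of this length in the RefSeq table, 12.4% hold TATAAA and 33.8% hold CCAAT. A match is a description of the sequence and does not show that a factor binds there.

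The most abundant entry in every library was Mir6236, a gene annotated as a microRNA (chromosome 9, 110281287 to 110281409). It took 11.2%, 7.59%, 10.7% and 9.44% of all TPM. Its mature sequence in RefSeq is shown, with the seed (bases 2 to 8) in capitals, because this one short gene scales every other value in the table.
mmu-miR-6236, chr9:110281353-110281371, plus strand: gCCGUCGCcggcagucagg
The 19 bases occur in 1 of 141767 transcripts of GENCODE M21, the Mir6236 transcript itself, which is 123 bases long. Rn45s, the precursor of ribosomal RNA, stood at 8989, 5833, 7539 and 6785 TPM, in the same order of libraries as Mir6236. The search did not include a sequence of Rn45s, so it does not show that the bases are found in Mir6236 alone. What the reads assigned to Mir6236 derive from was not tested.

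Among protein-coding genes, secreted proteins and the protein synthesis machinery led. The 50 most abundant genes together held 32.9%, 30.03%, 33.7% and 31.96% of TPM, and 29 of these 50 encode ribosomal proteins. All 88 genes named as ribosomal proteins held 18.8% to 20.5%. Spp1, which encodes osteopontin, a secreted phosphoprotein that binds integrins and CD44, was the most abundant protein-coding gene at 11750.2, 12130.5, 11576 and 11883 TPM (chromosome 5, 104435118 to 104441050). Clu, which encodes the secreted chaperone clusterin, was at 8266, 8687, 8252 and 8395 TPM (chromosome 14, 65968483 to 65981547). Both varied little between the libraries, with a coefficient of variation (CV, the SD as a percentage of the mean) of 1.98% for Spp1 and 2.40% for Clu.

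Several small proteins of the cytoskeleton and of calcium signaling followed. S100a6, a calcium-binding protein, was at 7209, 7671, 7676 and 7426 TPM, and its relative S100a11 at 3971, 4183, 4302 and 4104 TPM. Tmsb10, a thymosin that binds actin monomers, was at 6812, 7146, 7085 and 7025 TPM. The CV over the 4 libraries was 2.98% for S100a6, 3.36% for S100a11 and 2.07% for Tmsb10. The elongation factor Eef1a1 averaged 6560.3 ± 240.1 TPM, the translationally controlled tumor protein Tpt1 5187 ± 124 TPM, the glycolytic enzyme Gapdh 4354 ± 123 TPM, the prolyl isomerase Ppia 3778 ± 79.6 TPM and the ferritin light chain Ftl1 3509 ± 94.5 TPM. All 24 S100 and annexin genes listed reached 1 TPM in every library, with a median of 242 TPM. Anxa2, which links membranes to actin, averaged 1576 ± 20.3 TPM, S100a10, its partner, 1249 ± 34.7 TPM, S100a4 1734 ± 48.1 TPM and Anxa5 748 ± 14.2 TPM.

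**Figure D2:**
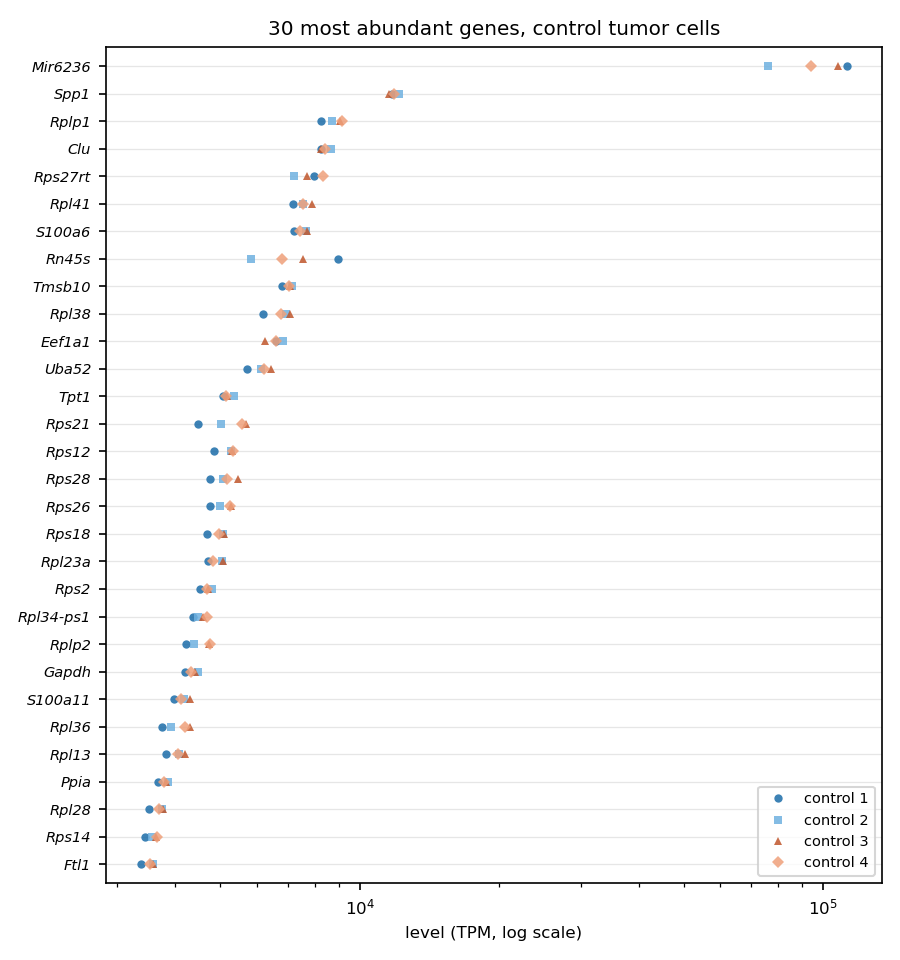
The 30 most abundant genes of the control tumor cells, with 1 point for each library and TPM on a logarithmic x axis. Mir6236 lies between 75924 and 112464 TPM. Spp1 lies at 11576 to 12131 TPM, and all other genes shown lie below Spp1.

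The cells expressed the keratins of simple, gland-forming epithelium. Krt8 was at 2265, 2401, 2279 and 2338 TPM (chromosome 15, 101996698 to 102004482) and its filament partner Krt18 at 1739, 1826, 1724 and 1775 TPM (chromosome 15, 102028180 to 102032027). Krt19, the keratin typical of pancreatic ducts, was at 1581, 1661, 1611 and 1608 TPM (chromosome 11, 100140810 to 100148665). Krt8 exceeded Krt18 in every library, by 1.31-fold on average, and no value of one overlapped the other. Krt7, a further ductal keratin, averaged 728 ± 21.6 TPM, Krt20, a keratin of gut epithelium, 301 ± 13.7 TPM, and Krt23 85.6 ± 2.54 TPM. The stratified and squamous keratins were low: Krt14 averaged 20.8 ± 1.38 TPM, and Krt5, Krt17, Krt6a and Krt6b averaged 0.783, 0.902, 0.0630 and 0.164 TPM. In all, 12 of 17 keratins on the list reached 1 TPM in every library.

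The other markers used to check the label of the sorted cells were present as well. Cdh1, the epithelial cadherin of adherens junctions, was at 376, 374, 322 and 358 TPM (chromosome 8, 106603351 to 106670246), with the lowest value in library 3. Tspan8, a tetraspanin of gut and pancreatic carcinomas, was at 489, 502, 489 and 484 TPM (chromosome 10, 115816832 to 115849893), with a CV of 1.58%. Epcam, an adhesion molecule on most carcinomas, was low at 12.5, 12.8, 12.9 and 13.1 TPM. Krt8, Krt18, Krt19, Cdh1 and Tspan8 were all high in every library, so each of the 5 markers was found at a high level under the label of tumor epithelium.

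Junction genes were mixed. Of the 38 genes of epithelial junctions and their regulators, 28 reached 1 TPM in every library and 8 stayed below it in all 4, with a median of 16.6 TPM. Spint2, an inhibitor of membrane proteases, was the highest at 375 ± 11.3 TPM. Cldn2, a pore-forming claudin, averaged 198 ± 8.57 TPM, F11r, the junctional adhesion molecule, 179 ± 13.97 TPM, and Jup, which links cadherins and desmosomes to the cytoskeleton, 107 ± 3.17 TPM. Cldn6, a claudin typical of embryonic epithelium, averaged 73.3 ± 4.29 TPM, whereas Cldn4 averaged 6.06 ± 0.607 TPM and Cldn7 1.38 ± 0.707 TPM. Cldn18, a claudin of stomach epithelium, averaged 0.450 TPM and Cldn1 0.0343 TPM.

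Among the regulators of the epithelial state the members were unequal. Elf3 averaged 68.5 ± 1.75 TPM, Klf5 54.1 ± 4.33 TPM and the splicing factor Esrp2 33.3 ± 2.06 TPM. Its relative Esrp1 was at 0.0544 TPM, Grhl2, which maintains Cdh1 and other epithelial genes, at 0.113 TPM, and Ovol2, a repressor of the mesenchymal program, at 0.0190 TPM. The protease pair St14 and Prss8 of the epithelial surface averaged 0.236 and 0.260 TPM. Each of these 5 genes stayed under 1 TPM in all 4 libraries.

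Mesenchymal genes were expressed at the same time as the keratins. Of the 30 genes listed for the epithelial-mesenchymal transition, 29 reached 1 TPM in every library (51.4% of all genes did), and their median was 46.5 TPM. Vim, the intermediate filament of mesenchymal cells, was at 2456, 2571, 2453 and 2507 TPM, close to Krt8. Fn1, which encodes fibronectin, was at 646, 649, 538 and 631 TPM, lowest in library 3. Lgals1, a galectin, averaged 2796 ± 108 TPM, Sparc, a matrix glycoprotein, 313 ± 9.89 TPM, and Axl, a receptor tyrosine kinase of mesenchymal tumor cells, 154 ± 5.15 TPM. Cdh2, the neural cadherin, was at 46.7, 49.3, 42.9 and 46.9 TPM, below Cdh1 in each library.

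The transcription factors of this program were lower than Vim and Fn1. Twist1 was at 29.5, 29.97, 29.4 and 31.4 TPM, and Zeb1, a repressor of Cdh1, at 13.5, 14.6, 11.6 and 13.7 TPM. Prrx1 averaged 8.17 ± 0.331 TPM, Snai1 5.83 ± 0.987 TPM, Twist2 5.55 ± 0.474 TPM, Zeb2 4.98 ± 0.354 TPM and Snai2 2.63 ± 0.451 TPM. Some structural genes of the list were as low as the factors, with Fbn1, which encodes fibrillin, at 1.41 ± 0.199 TPM and the myosin light chain Myl9 at 2.88 ± 0.367 TPM. Some genes of contractile fibroblasts were also low, with Tagln at 5.39 ± 0.549 TPM and Acta2, the smooth muscle actin, at 11.4 ± 0.465 TPM. Vim is also expressed by fibroblasts and leukocytes, and in bulk RNA a smaller number of such cells and less RNA per cell cannot be told apart.

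The factors that specify foregut and pancreas were present in part. Of 34 listed, 19 of 34 (55.9%) reached 1 TPM in every library, a share near the 51.4% of all genes. The other 15 stayed under 1 TPM in all 4, of which 6 were listed at 0. Hnf4a, a nuclear receptor of liver, gut and classical pancreatic tumors, was at 88.9, 87.9, 81.7 and 87.005 TPM (chromosome 2, 163506808 to 163572910). Foxa2, a pioneer factor of the endoderm, was at 46.4, 49.1, 44.8 and 49.4 TPM, and Pdx1, which specifies the pancreas, at 40.4, 41.8, 34.97 and 38.8 TPM (chromosome 5, 147269959 to 147275848). Gata6 was at 39.1, 39.2, 36.97 and 38.6 TPM and Sox9, a factor of ducts and progenitors, at 32.5, 32.9, 28.7 and 30.6 TPM. None of these 5 genes was near 0 in any library, and Pdx1 had the widest range among them, its highest value being 1.19 times its lowest.

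More members of the group had moderate levels. Sox4 was the highest at 157 ± 9.001 TPM, Foxq1 averaged 73.5 ± 3.48 TPM, Onecut2 51.1 ± 4.76 TPM, Gata5 28.01 ± 1.31 TPM, Gata4 23.2 ± 1.65 TPM and Onecut3 17.7 ± 0.565 TPM. Cdx2, which specifies intestine, averaged 15.9 ± 0.827 TPM, while Cdx1 was listed at 0 in all 4 libraries. Foxa1 and Foxa3 were near 4.75 and 4.78 TPM. Of 18 pairs of neighbours in the order of levels of the 19 expressed factors, the higher gene was higher in all 4 libraries for 13, and the ranges did not overlap for 11. The order was set by the means of the same 4 libraries, which favours such counts in advance.

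Acinar and endocrine factors and products were mostly not seen. Ptf1a and Rbpjl, which together drive acinar genes, were listed at 0 in every library, as were Nkx6-1 and Neurod1 of the beta cell and Mnx1. Of 22 acinar products, 15 stayed under 1 TPM in all 4 libraries and 10 were at 0, among them Cpa1, Cpb1, Prss1 and Amy2a5. Cela1, an elastase that other epithelia also express, was the highest at 10.6, 12.8, 13.03 and 10.8 TPM. The hormone genes Ins1, Ins2, Gcg and Iapp were at 0. Pcsk2, a convertase that processes prohormones, was the exception among 12 islet genes at 14.7, 16.5, 15.1 and 14.6 TPM.

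Genes of stomach and gut epithelium gave a divided picture. Of the 32 trefoil peptides, mucins and gastric or gut genes measured, 11 of 32 reached 1 TPM in every library and 16 stayed under 1 TPM in all 4. Ctse, the gastric protease cathepsin E, was at 346, 360.4, 345 and 359.6 TPM, Lgals4, a gut galectin, at 288, 299, 296 and 292 TPM, and Cdh17, the liver-intestine cadherin, at 149, 150.5, 138 and 147 TPM. These 3 genes, all on the list for the classical type, varied by less than 5% (CV). Muc1, a membrane mucin of ducts, averaged 120.4 ± 3.09 TPM, Dmbt1, a mucosal scavenger protein, 116 ± 7.28 TPM, Vsig1, a junction protein of stomach, 111 ± 3.37 TPM and Anxa10, of gastric surface cells, 68.01 ± 3.59 TPM. The secreted mucins were low, with Muc5ac at 0.455 TPM, Muc2 at 0.112 TPM and Muc6 at 0.0394 TPM.

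The trefoil peptides were less even between libraries. Tff1 was at 18.9, 10.9, 19.9 and 16.2 TPM and Tff2 at 14.6, 11.4, 8.97 and 13.5 TPM. Tff3, the trefoil peptide of intestinal goblet cells, was at 4.46, 5.23, 0.301 and 1.26 TPM and so was higher in libraries 1 and 2, which also held the defensins. Reg3b, an antimicrobial lectin of the gut, was at 1.46, 3.41, 0.474 and 0.489 TPM. Agr2, which is needed for mucin folding, averaged 1.67 ± 0.350 TPM.

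Read by the lists for tumor subtypes, 12 of 20 classical genes and 11 of 24 basal genes reached 1 TPM in every library, 60% and 45.8%, beside 51.4% of all genes. The median level was 3.17 TPM for the classical list and 1.08 TPM for the basal list. The highest basal genes were Krt7, Anxa8 at 389 ± 9.38 TPM, the lysosomal protease Ctsl at 156 ± 5.49 TPM and the glucose transporter Slc2a1 at 145 ± 4.74 TPM. Trp63, the master regulator of squamous epithelium, was at 0.0985, 0.102, 0.0812 and 0.178 TPM, and Vgll1 and Sprr3 were listed at 0. Both lists hold highly expressed genes beside genes at or near 0, and 1 clone gives no measure of how such lists vary among tumors.

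**Figure D3:**
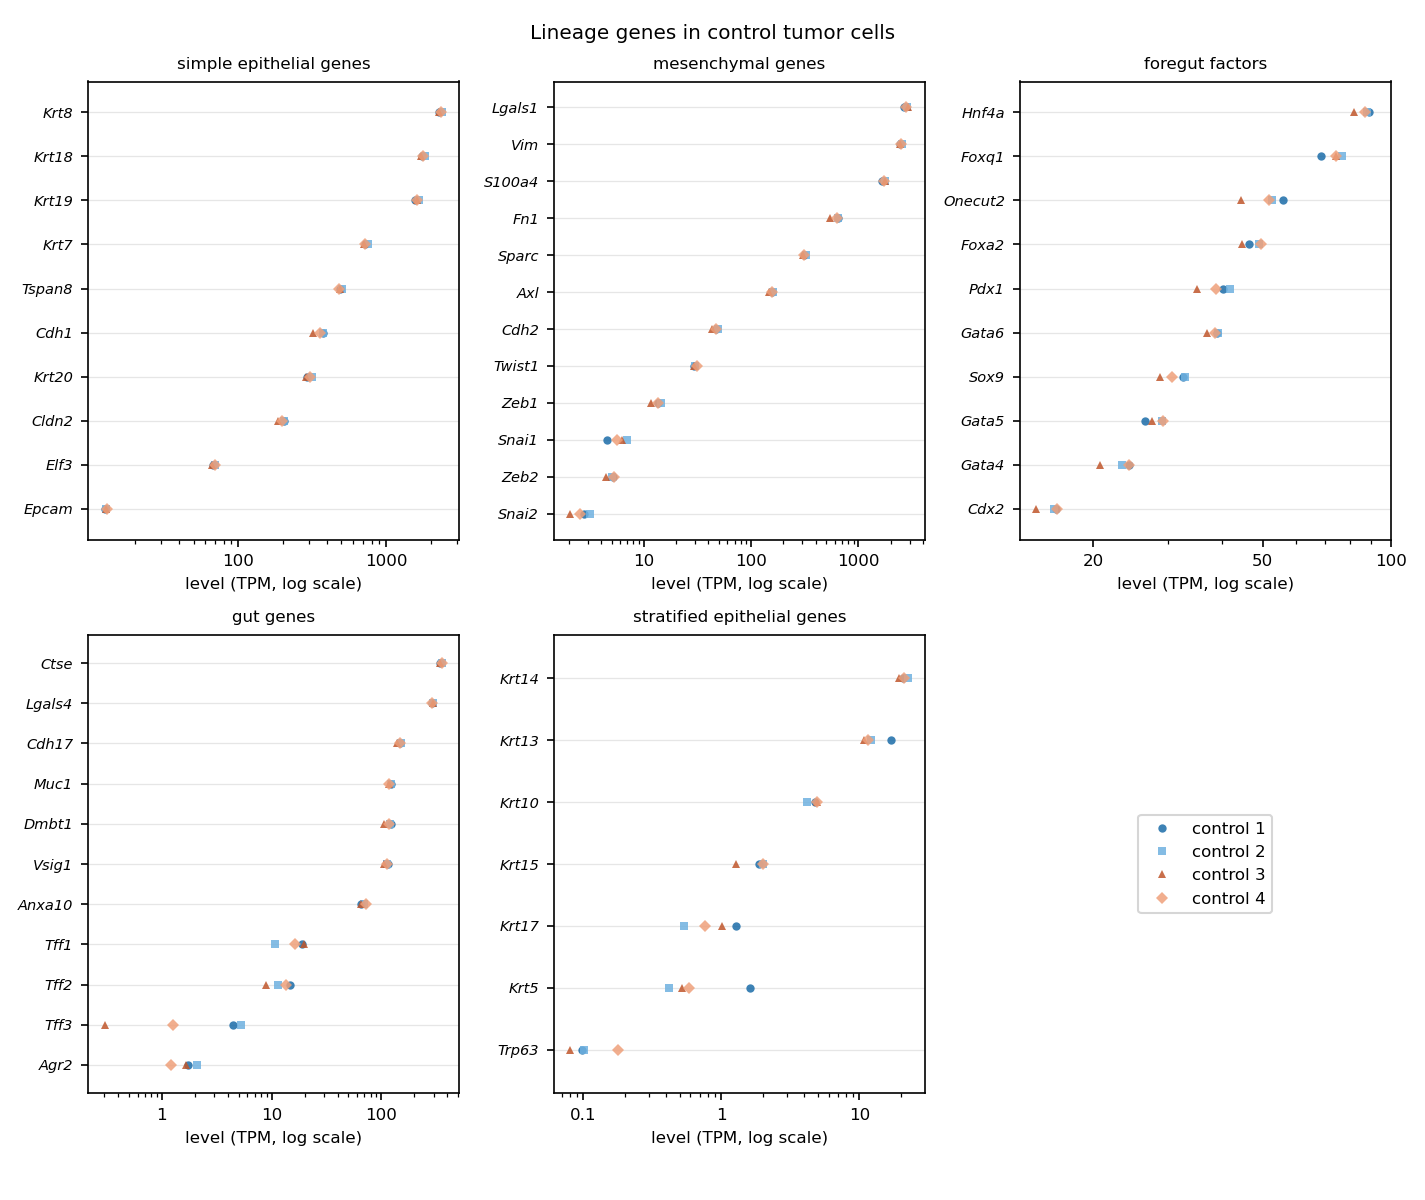
Levels of lineage genes in the 4 control libraries, in TPM on a logarithmic x axis, with 1 point for each library and 1 row for each gene, grouped as simple epithelial genes, mesenchymal genes, foregut factors, gut genes, and stratified epithelial genes. Krt8 and Vim lie close together at 2265 to 2401 and 2453 to 2571 TPM, and the foregut factors plotted lie below 100 TPM.

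The driver genes of pancreatic cancer were all transcribed: all 30 listed drivers and partners reached 1 TPM in every library, with a median of 33.5 TPM. Cdkn2a, which encodes the cell cycle inhibitor p16 and the Arf protein, was the highest at 682, 739, 699 and 705 TPM (chromosome 4, 89274471 to 89294653). Its neighbour Cdkn2b averaged 139 ± 4.33 TPM. Trp53, the tumor suppressor that Arf stabilizes, was at 139.9, 141, 137 and 142 TPM (chromosome 11, 69580359 to 69591873). Smad4 averaged 55.95 ± 2.81 TPM, its partner Smad3 47.9 ± 3.53 TPM and the receptor Tgfbr2 32.3 ± 1.39 TPM. The deposited levels say nothing of alleles, so mutant and normal copies cannot be told apart.

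Targets and feedback regulators of ERK signaling were also all above 1 TPM in every library, 20 of 20, with a median of 53.1 TPM. Dusp6, the phosphatase that switches off ERK, was at 117, 116, 104 and 117 TPM, and Dusp5 averaged 69.98 ± 3.25 TPM. Ier3 averaged 330.3 ± 12.6 TPM, the cyclin Ccnd1 214 ± 10.5 TPM, the urokinase receptor Plaur 188 ± 4.69 TPM, Epha2 137 ± 8.23 TPM, Phlda1 108 ± 3.01 TPM and the ETS factor Etv4 65.4 ± 1.75 TPM. The adaptor inhibitors Spry1, Spry2 and Spry4 were lower, at 22.7, 16.8 and 8.15 TPM. The kinases themselves spanned 5.01 TPM for Braf to 183 TPM for Mapk3.

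Several ligands of the EGF receptor exceeded the receptor in level. Hbegf was at 88.3, 87.4, 72.95 and 86.7 TPM, Areg at 30.8, 30.3, 30.8 and 29.8 TPM, and Tgfa and Btc averaged 27.3 ± 1.71 and 24.7 ± 1.42 TPM. Egfr was at 13.7, 14.8, 11.3 and 13.6 TPM and Erbb3 averaged 8.21 ± 1.33 TPM. Erbb2, the family member without a ligand of its own, was the highest receptor at 42.9, 44.1, 37.6 and 43.6 TPM, and Erbb4 averaged 0.00306 TPM. Hbegf, Areg, Tgfa and Btc were above Egfr in each of the 4 libraries, whereas the ligands Ereg, Egf and Epgn, which averaged 6.89, 0.756 and 0.0651 TPM, were below it in each.

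Of 36 other receptor tyrosine kinases, 20 of 36 (55.6%) reached 1 TPM in every library, near the 51.4% of all genes. The collagen receptor Ddr1 averaged 170.1 ± 4.69 TPM, Ephb4 60.3 ± 2.40 TPM, the hepatocyte growth factor receptor Met 33.04 ± 2.64 TPM and its relative Mst1r 22.1 ± 1.21 TPM. Hgf, the ligand of Met, was at 0.230 TPM. Csf1r, the receptor that macrophages depend on, averaged 18.1 ± 0.728 TPM. The receptors Fgfr2, Kit and Ret were at 0.0701, 0.101 and 0.178 TPM.

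Wnt ligands were expressed beside the enzyme that acylates them. Wnt10a was at 82.8, 91.9, 88.1 and 89.01 TPM and Wnt7b at 53.98, 57.05, 58.5 and 57.6 TPM. Porcn, the acyltransferase that Wnt ligands need for secretion, was at 70.6, 74.7, 71.7 and 71.8 TPM, and the co-receptor Lrp5 averaged 70.6 ± 2.76 TPM. Ctnnb1, which encodes beta-catenin, averaged 484 ± 25.1 TPM. Axin2, a common target of the pathway, averaged 2.56 ± 0.112 TPM, Lgr5 0.303 ± 0.0430 TPM, and Sp5 and the ligand Wnt3a were listed at 0. Of 44 Wnt genes, 27 of 44 (61.4%) reached 1 TPM in every library, beside 51.4% of all genes.

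In the Notch pathway, 15 of 20 genes reached 1 TPM in every library. The receptor Notch2 averaged 33.03 ± 2.51 TPM and Notch1 10.99 ± 0.459 TPM, the ligands Jag1 and Jag2 25.8 ± 2.28 and 25.4 ± 1.42 TPM, and the target Hes1 52.2 ± 3.85 TPM. In the Hedgehog pathway the inhibitor Sufu averaged 37.5 ± 1.64 TPM and the transducer Smo 17.2 ± 0.695 TPM, while the target Gli1 averaged 0.585 ± 0.153 TPM and the ligand Shh 0.226 ± 0.130 TPM. Dhh, a further ligand, averaged 10.96 ± 0.195 TPM. Among 42 genes of TGF-beta, activin and BMP signaling, 33 of 42 reached 1 TPM in every library. Tgfb1 was at 124, 138, 135 and 134 TPM, Ltbp3, which holds the ligand in the matrix, averaged 207 ± 9.11 TPM, the inhibitor Id2 135 ± 4.13 TPM and Inhba, the activin A subunit, 30.4 ± 2.09 TPM. All 16 YAP and TEAD genes reached 1 TPM in every library. Their secreted targets Cyr61 and Ctgf averaged 200.1 ± 6.86 and 328 ± 11.6 TPM, and the target Ankrd1 was at 161, 166, 153 and 154 TPM. Yap1 averaged 67.4 ± 4.28 TPM and its relative Wwtr1 43.2 ± 2.10 TPM.

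Transcripts of several surface antigens of carcinomas were abundant, and protein was not measured. Bsg, which encodes the immunoglobulin family protein CD147, was at 1149, 1211, 1172 and 1199.8 TPM. Msln, mesothelin, a lipid-anchored antigen of pancreatic cancer and mesothelium, was at 773, 796, 732 and 780.3 TPM (chromosome 17, 25748613 to 25754378), and Ly6e, another lipid-anchored protein, at 733, 783, 771 and 749.5 TPM. All 3 were high in every library. Cd24a, a mucin-like glycoprotein, averaged 422 ± 15.8 TPM, the heparan sulfate proteoglycan Sdc1 410.2 ± 11.2 TPM, Ly6a 321 ± 4.82 TPM, tissue factor F3 147 ± 2.41 TPM, the hyaluronan receptor Cd44 174 ± 9.93 TPM and Gpc1 110.5 ± 3.56 TPM. Of 36 antigens measured, 27 reached 1 TPM in every library and 9 stayed below it in all 4. Among the latter were Psca at 0.507 TPM, Nectin4 at 0.294 TPM, and the folate receptor Folr1 at 0.

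Tetraspanins, scaffold proteins of membranes and exosomes, were abundant, and 21 of 24 reached 1 TPM in every library. Cd63 was at 659, 677, 666 and 670.02 TPM and Cd9 at 652, 662, 624 and 645 TPM, followed by Tspan8. Cd81 averaged 277 ± 4.88 TPM and Cd151, a partner of laminin-binding integrins, 207 ± 6.97 TPM. Over the 5 highest, the higher gene of each of 4 neighbouring pairs was higher in all 4 libraries, and the ranges did not overlap for 3 of the pairs. This order too was set by the means of the same libraries. Tspan1, by contrast, was at 0.888, 1.47, 1.37 and 1.27 TPM.

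The highest integrins included the laminin-binding subunits of epithelial cells. Itgb1 was at 435, 445, 398 and 431 TPM, Itga3 at 178, 186, 171 and 181 TPM and Itga6 at 134, 135, 114 and 129 TPM. Itgb5 averaged 99.95 ± 3.62 TPM, the fibronectin receptor subunit Itga5 70.2 ± 3.26 TPM, the hemidesmosome subunit Itgb4 53.4 ± 2.81 TPM and Itgav, a receptor subunit for osteopontin and fibronectin, 47.3 ± 3.80 TPM. The 8 highest integrins, ordered by the means of the same libraries, did not overlap in range between neighbours in any of 7 pairs. The leukocyte subunits Itgb2 and Itgam averaged 15.9 ± 0.471 and 11.6 ± 0.517 TPM.

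Of the laminin chains, Lama5 was the highest at 105, 107, 96.9 and 105 TPM. Lamb3 was at 51.9, 51.6, 50.5 and 52.3 TPM and Lama3 at 1.77, 1.81, 1.47 and 2.02 TPM, lower than Lamb3 in each library. Col18a1, a basement membrane collagen, averaged 312 ± 11.5 TPM, agrin (Agrn) 129 ± 9.75 TPM and Col4a1 119 ± 6.19 TPM.

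Beyond Spp1 and Clu, the secreted products included binding proteins of insulin-like growth factors. Igfbp4 was at 2398, 2533, 2569 and 2551 TPM and Igfbp7 at 1848, 2023, 1987 and 1965 TPM. Igfbp3 averaged 210.5 ± 5.55 TPM, while Igfbp2, Igfbp5 and Igfbp1 averaged 0.633, 0.337 and 0.246 TPM. Wfdc2, the carcinoma serum marker HE4, was at 942, 1005, 1022 and 1009 TPM. Ecm1 averaged 498 ± 13.8 TPM, the galectin Lgals3 451 ± 24.5 TPM, Lgals3bp 372 ± 11.8 TPM, complement C3 267 ± 15.1 TPM and Cfb 151 ± 5.44 TPM.

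Some products shared with the liver differed little between the 2 library pairs, unlike Alb. Trf, the iron carrier transferrin, was at 356, 372, 332 and 357 TPM, Gc, the vitamin D-binding protein, at 97.9, 105, 91.5 and 91.4 TPM, and Ttr, the thyroid hormone carrier, at 37.2, 39.97, 30.6 and 31.5 TPM. The pairs overlapped for Trf, except when the values were rescaled without small and ribosomal RNA genes. Gc and Ttr were higher in libraries 1 and 2 without overlap, the lower value of the first pair being 1.07 and 1.18 times the higher value of the second. With median-of-ratios scaling these folds were 1.001 and 1.14, so the gap of Gc all but closed. Of the 9 liver carriers of at least 10 TPM on average, 7 were higher in libraries 1 and 2 without overlap. Of all genes of that level, 34.1% were. With median-of-ratios scaling the count was again 7, beside 15.3% of all genes. These counts are a description only, since the list was drawn up after the values were seen. In addition, Alb, Apoa1, Apoa2 and Apoc1 reached that average only through libraries 1 and 2. Prlh, the prolactin releasing hormone, was uneven in another way at 10.3, 22.5, 24.8 and 8.68 TPM, without following the pairs.

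Proteases and their inhibitors were widely expressed, with 33 of 36 at 1 TPM or more in every library and a median of 40.6 TPM. The lysosomal protease Ctsd averaged 564 ± 16.9 TPM, the inhibitors Cst3 and Timp2 520.5 ± 21.1 and 501 ± 18.9 TPM, the plasminogen activator Plat 330.1 ± 9.98 TPM, and Mmp14, the membrane-bound collagenase, 233 ± 3.27 TPM. Plau, the urokinase, averaged 8.37 ± 0.410 TPM, lower than its receptor Plaur. Mmp13 averaged 47.9 ± 1.68 TPM, Mmp9 10.1 ± 0.836 TPM, Mmp2 3.79 ± 0.394 TPM and Mmp7 0.163 TPM.

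Chemokines that attract myeloid cells were the highest of their family. Ccl8 was at 226, 240.3, 272 and 259.6 TPM, Cxcl5, a ligand of the neutrophil receptor Cxcr2, at 214, 218, 209 and 215 TPM, and Ccl6 at 135, 142, 140.01 and 138 TPM. Cxcl16 averaged 117 ± 4.18 TPM. Cxcl1, a further Cxcr2 ligand, was at 54.8, 57.4, 61.2 and 62.1 TPM, and its relatives Cxcl3 and Cxcl2 averaged 31.4 ± 3.32 and 21.3 ± 2.69 TPM. The interferon-induced T cell attractants Cxcl10 and Cxcl9 averaged 43.7 ± 3.56 and 34.6 ± 0.802 TPM, and Cxcl12, typical of fibroblasts, 0.912 ± 0.351 TPM. Of 35 chemokines, 28 of 35 reached 1 TPM in every library. Macrophages also make several of these, and markers of macrophages were present, as given below.

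Among cytokines and growth factors Mif, macrophage migration inhibitory factor, was the highest at 1451, 1531, 1552 and 1519.7 TPM. Vegfa, the main growth factor of blood vessels, was at 239, 250.3, 232 and 242 TPM, Angptl4 averaged 124 ± 2.70 TPM, and the platelet-derived growth factors Pdgfa, Pdgfc and Pdgfb 101 ± 3.65, 63.2 ± 3.43 and 57.1 ± 2.65 TPM. Il33, an alarmin, was at 86.7, 87.3, 81.9 and 88.5 TPM. The colony-stimulating factors Csf1, Csf2 and Csf3 averaged 16.7 ± 1.13, 9.03 ± 0.284 and 8.85 ± 1.03 TPM, and Lif 19.6 ± 0.234 TPM. Il6 averaged 0.353 ± 0.166 TPM and Ifng 0.124 ± 0.0426 TPM. Of 51 genes, 32 of 51 (62.7%) reached 1 TPM in every library, beside 51.4% of all genes.

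**Figure D4:**
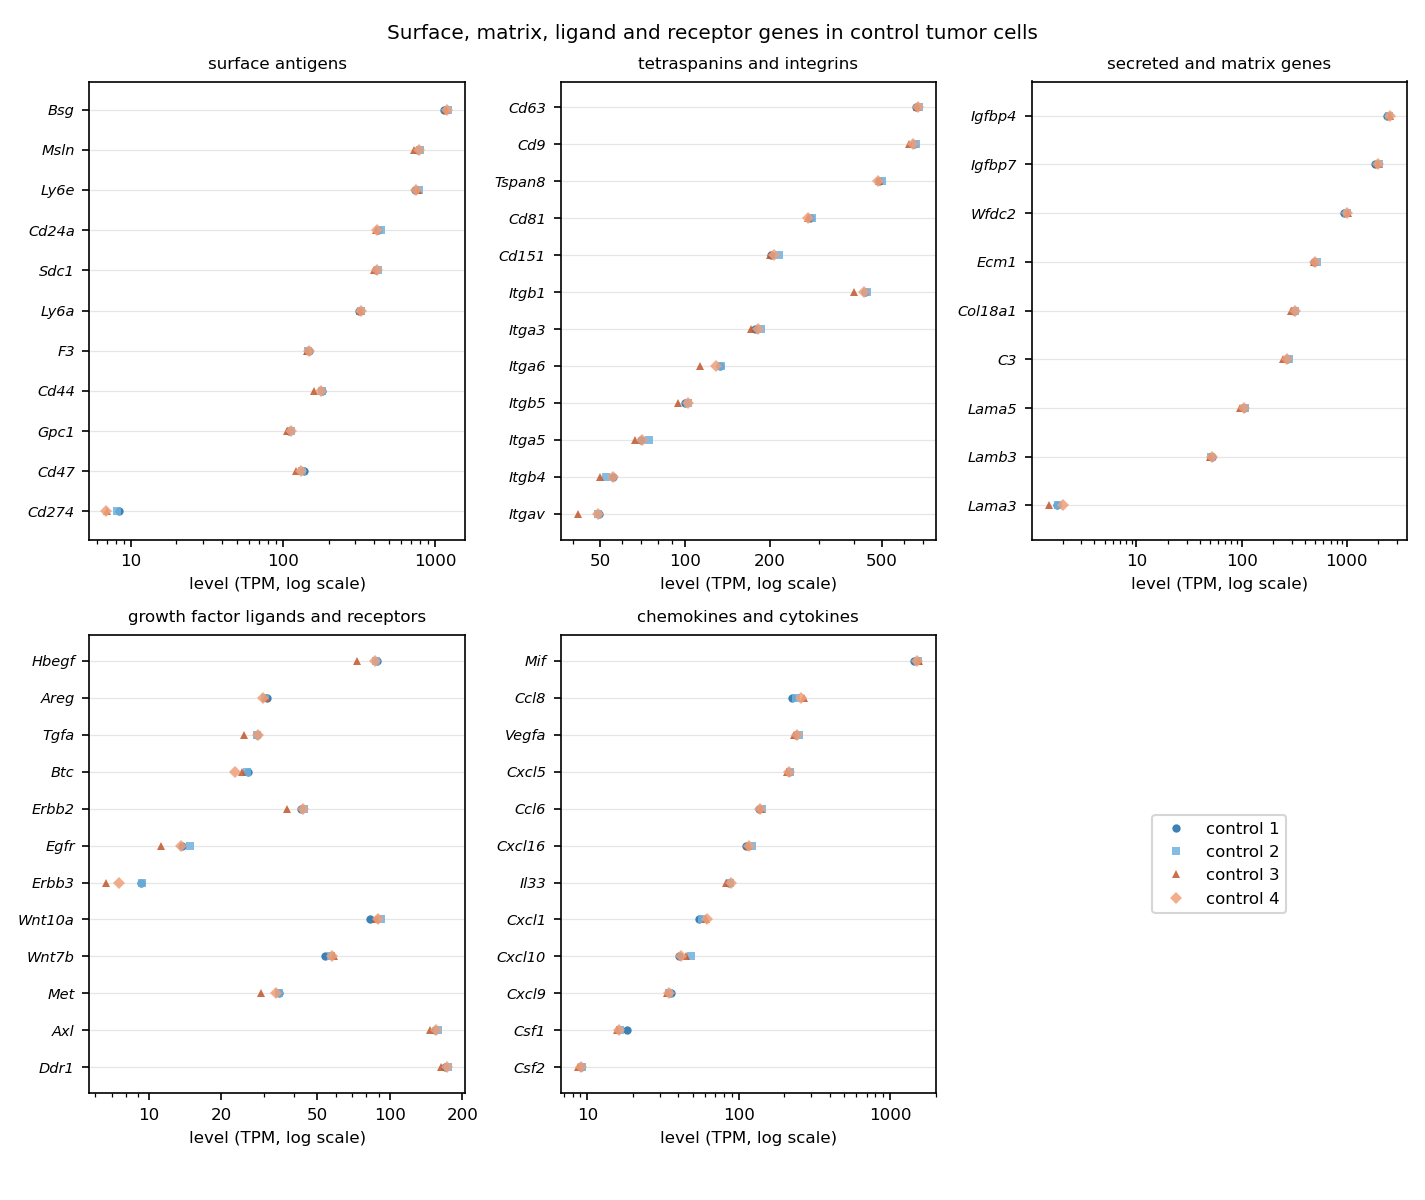
Levels of surface proteins, matrix genes, ligands and receptors, and chemokines and cytokines in the 4 control libraries, in TPM on a logarithmic x axis, with 1 point for each library and 1 row for each gene. Bsg lies at 1149 to 1211 TPM and Mif at 1451 to 1552 TPM, while Egfr lies at 11.3 to 14.8 TPM, below Hbegf, Areg, Tgfa and Btc.

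The machinery of antigen presentation by MHC class I was expressed. B2m, the shared light chain, was at 2071, 2157, 2126 and 2078 TPM, the heavy chains H2-K1 and H2-D1 averaged 1857 ± 37.5 and 1267 ± 38.005 TPM, and the peptide transporter genes Tap1 and Tap2 46.7 ± 3.04 and 39.5 ± 1.27 TPM. Of 23 genes, 21 of 23 reached 1 TPM in every library, but near-identical members of the H2 family may share reads, as with H2-Q7 and H2-Q6, the latter listed at 0. MHC class II genes were lower, with the invariant chain Cd74 at 171, 173, 173 and 168 TPM and H2-Ab1 averaging 43.7 ± 2.35 TPM. Ciita, the activator of class II, averaged 1.78 ± 0.224 TPM.

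Ligands of immune receptors ranged widely. Cd47, which signals to macrophages not to engulf a cell, was at 137, 133, 122 and 132 TPM. Cd274, the PD-1 ligand PD-L1, was at 8.45, 8.16, 7.03 and 6.94 TPM, and Pdcd1lg2 averaged 0.431 ± 0.0538 TPM. Lgals9 averaged 186 ± 5.37 TPM, the ectoenzyme Nt5e, which makes adenosine, 80.1 ± 3.33 TPM, Cd276 48.1 ± 0.775 TPM and Pvr 27.9 ± 1.66 TPM. Cd80 and Cd86, the costimulators of antigen-presenting cells, averaged 0.775 and 0.907 TPM.

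Glycolytic enzymes were among the abundant genes. Eno1 averaged 1654 ± 27.6 TPM, Pkm 1502 ± 40.9 TPM, Ldha 1275 ± 29.5 TPM and Aldoa 1046 ± 25.5 TPM. Car9, the carbonic anhydrase induced in hypoxia, was at 59.4, 58.7, 56.6 and 60.9 TPM, and Slc2a1, named above, was above its relative Slc2a3 at 0.532 ± 0.0414 TPM. All 22 genes of cholesterol synthesis reached 1 TPM in every library, led by Fdps at 203 ± 5.95 TPM. All 35 proliferation genes did so too, with Cdk4 at 258 ± 6.52 TPM, Pcna at 147 ± 5.33 TPM, Birc5 at 66.7 ± 2.83 TPM and Mki67 at 16.2, 16.1, 12.9 and 15.9 TPM. Immediate-early genes were present in every library, with Fos at 92.1, 93.5, 84.9 and 88.9 TPM, Egr1 at 137, 146, 131 and 141 TPM and Junb at 616, 673, 645 and 692 TPM.

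Markers of other cell types were found in the sorted material. Of 20 macrophage and monocyte markers, 19 reached 1 TPM in every library, and their sum was 1714, 1829, 1742 and 1732 TPM. Lyz2, the lysozyme of myeloid cells, was at 406, 434, 405 and 401 TPM, Apoe, which many cell types make, at 537, 593, 547 and 551 TPM, and C1qa, a complement gene of macrophages, at 100.4, 105, 107 and 98.2 TPM. Adgre1, the antigen F4/80, averaged 5.41 ± 0.615 TPM, and Ptprc, the leukocyte antigen CD45, was at 2.86, 2.85, 2.17 and 3.06 TPM. The sum of this list did not follow the library pairs. Of 10 pan-leukocyte markers 9 reached 1 TPM in every library, with a sum of 105 to 126 TPM. Of T and NK cell markers 1 of 14 did, with a sum of 7.09 to 9.40 TPM, and of B and plasma cell markers 0 of 7, with a sum of 0.965 to 1.74 TPM. The T cell receptor subunit Cd3e averaged 0.366 TPM. Of the 11 neutrophil markers 5 reached 1 TPM in every library, with a sum of 25.7 to 29.9 TPM. S100a8 averaged 13.2 ± 1.90 TPM, Ly6g 0.0961 TPM, and Elane was at 0 in every library.

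Stromal markers were mixed in level, and 13 of 16 fibroblast and pericyte markers reached 1 TPM in every library, with a sum of 488 to 529 TPM. Col6a1 averaged 264 ± 7.92 TPM, Col1a1 was at 91.2, 91.9, 85.4 and 94.2 TPM, and Postn averaged 21.7 ± 0.841 TPM. Pdgfra and Pdgfrb, receptors that define fibroblasts and pericytes, averaged 0.839 and 1.33 TPM, and the fibroblast protease Fap 0.342 TPM. Endothelial Pecam1 and Cdh5 averaged 1.96 and 1.52 TPM, with a sum over 12 markers of 35.4 to 40.3 TPM. Hemoglobin genes were present, the sum of Hba-a1 and Hba-a2 being 73.8, 79.3, 81.1 and 65.5 TPM, while Hbb-bs was listed at 0. Erythroid and platelet markers together gave 139 to 155 TPM and keratinocyte markers 36.8 to 41.2 TPM, with Trp63, Krt1 and Krt5 at 0.115, 0.0138 and 0.783 TPM. The 8 adipocyte markers summed to 79.9, 55.8, 43.04 and 43.2 TPM, highest in library 1, and the 9 skeletal muscle markers to 52.1 to 65.6 TPM, mostly from Tnni2 at 55.7 ± 4.33 TPM. The part these cells had in the levels of shared genes such as Vim, Fn1, Spp1, Ccl8 and Cd74 was not tested.

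The spread between libraries was small for most genes and was smaller at higher levels. The median CV was 5.33% over the 8426 genes that averaged 10 TPM or more. It was 11.3% for genes between 1 and 10 TPM, 6.999% between 10 and 20 TPM, 5.56% between 20 and 50 TPM, 4.44% between 50 and 100 TPM, 3.63% between 100 and 500 TPM and 2.997% from 500 TPM. The most even of all genes of at least 10 TPM was Dguok, a mitochondrial nucleoside kinase, at 34.4, 34.4, 34.5 and 34.5 TPM. Next was Cyb5r3, a cytochrome b5 reductase, at 262, 263, 263 and 263 TPM.

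A CV above 50% was found for 53 of the 8426 genes. Of these 35 were microRNA, small nucleolar or other small RNA genes, whose median CV was 33.99% over 125 genes, beside 5.29% for all others. The remaining 18 included 5 major urinary protein genes and Alb, Apoa1, Apoa2, Apoc1, Fabp1 and Fabp4, which followed the library pairs. Others were genes with a near-identical copy. Eif3j1, a translation initiation factor subunit, was at 46.6, 0, 27.8 and 45.9 TPM and its copy Eif3j2 at 0, 47.02, 15.1 and 1.72 TPM. Their sum was 46.6, 47.0, 42.9 and 47.6 TPM, so the uneven values cancelled. The ribosomal protein gene Rps27, at 369, 1079, 1049 and 446 TPM, and its retrotransposed copy Rps27rt summed to 8340, 8306, 8753 and 8776 TPM, with a CV of 2.99% where Rps27 alone had 51.7%.

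**Figure D5:**
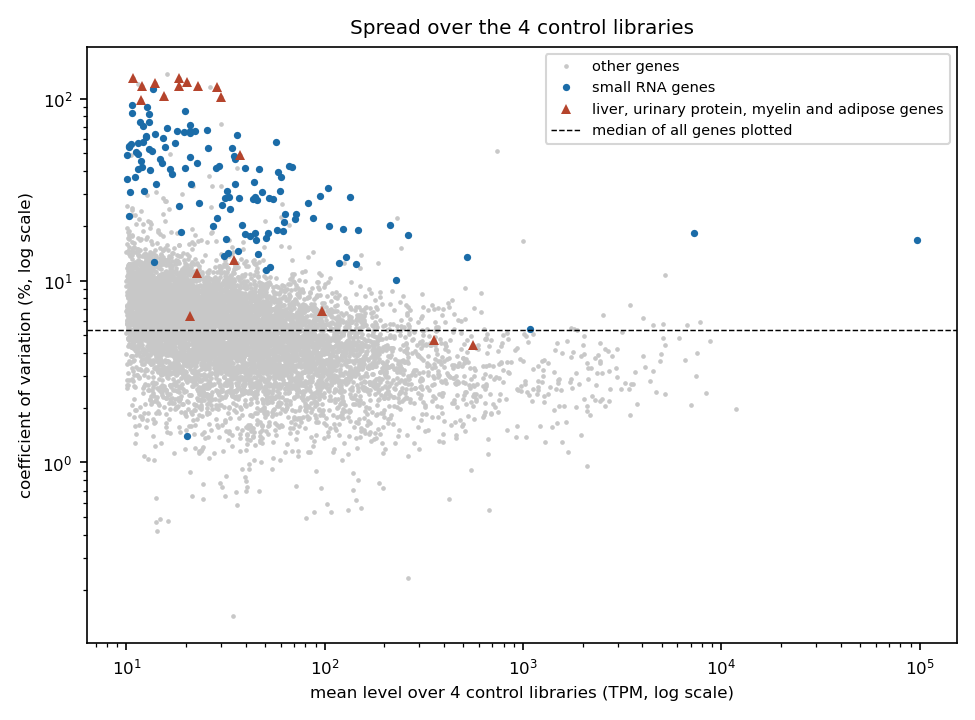
Coefficient of variation over the 4 control libraries, in percent on a logarithmic y axis, against mean level in TPM on a logarithmic x axis, with 1 point for each gene of at least 10 TPM. Small RNA genes and genes of the liver, urinary protein, myelin and adipose groups are coloured. Most of them lie above the dashed line at the median of 5.33%, and Trf, Apoe and Gc lie near it.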

How the data were processed

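The 6 samples are sorted mouse pancreatic tumor cells, and a commercial company sequenced their RNA (per the labels' protocols). The authors deposited 1 table of TPM values for 24493 genes. The submitters' processing notes name Salmon and the mm10 build, and neither the version of Salmon nor its transcript set was given in the sources used here. TPM keeps no depth, so precision rests on the spread over the 4 control libraries, and the share taken by Mir6236 lowers all other values. Groups and library numbers came from the sample titles.

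No test was run, since the controls form 1 group. Means, SD and CV were computed with Python 3.11.15, numpy 2.4.6 and pandas 2.3.3, and plots were made with matplotlib 3.10.9. The code was tried on simulated data with known spread and known gaps between library pairs. A gene counted as expressed at 1 TPM or more in all 4 libraries, and spread was described for genes averaging 10 TPM or more.

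Levels were read for 46 lists of 990 genes, of which 985 matched the table, 3 under older symbols (Cyr61, Ctgf, Oit1). The members, the lists and the rule for named genes were chosen with earlier results of these data known, and the tissue groups after their values were seen. Named genes were the 30 most abundant, the most abundant members of each list, defining members under 1 TPM, the most and least variable genes, and those that differed most between library pairs, and the text gives these in part. Some genes of these lists are not reported here. Further genes were picked with their values in view. Gene positions come from GENCODE M21 (GRCm38, whole genes), matched by symbol for 346 of 350 genes named. Sequences are from RefSeq on GRCm38.p6, in which 999 of 1156 microRNA genes of the table had a mature sequence. Alternatives rescaled the values, changed the thresholds and left out each library in turn. A further alternative, chosen after seeing the data, took each pair of libraries alone.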

Additional observations from a re-analysis of the deposited data

Results flagged for a closer look

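For 24 of 327 named genes with unequal values, 1 of the 4 libraries stood apart from the other 3 by more than a gap that chance gives for about 1 gene in 20. The share of 7.34% is not far above that chance rate, so many of these gaps may be due to chance. Library 3 was the one that stood apart for 13 of the 24, each time as the lowest.

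These 13 genes were Fn1 (538 TPM in library 3), Cd44 (159 TPM), Cfb (143 TPM), Dusp6 (104 TPM), Hbegf (73.0 TPM), Smad3 (42.7 TPM), Itgav (41.6 TPM), Tgfa (24.8 TPM), Cdx2 (14.7 TPM), Mki67 (12.9 TPM), Notch1 (10.3 TPM), Adgre1 (4.49 TPM) and Ciita (1.45 TPM). In the other libraries Fn1 was at 631 to 649 TPM and Hbegf at 86.7 to 88.3 TPM. Library 3 was also the library whose values were lower for longer transcripts above 300 bases, and the part of transcript length in these gaps was not tested. With median-of-ratios scaling 22 genes had such a library, 6 of them among the 24, and library 3 was that library for 10.

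Library 2 stood apart as the highest for Lyz2 (434 TPM), Mst1r (23.9 TPM), Dhh (11.2 TPM) and Foxa1 (5.27 TPM). Library 1 was the lowest for S100a10 (1198 TPM) and the highest for Krt5 (1.61 TPM) and Cldn1 (0.0727 TPM). Ovol2 (0.0761 TPM) and Erbb4 (0.0123 TPM) were above 0 in library 1 alone, and Krt1 (0.0552 TPM) in library 4 alone. For these 3 genes the other libraries are all at 0, which sets the value apart by construction, and values so low cannot be told from 0. Hba-a1 was lowest in library 4 (46.0 TPM), where its near-identical copy Hba-a2 stood at 19.5 TPM.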

How the results depend on the processing

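No paired analysis was possible because no groups are compared. The count of expressed genes stayed between 12594 and 12701 under both rescalings and without each library in turn. With fewer libraries this count can only stay or rise, because a gene must reach the level in fewer of them. The count was 13460 at a level of 0.5 TPM and 9903 at 5 TPM. It was 12945 from libraries 1 and 2 alone and 12787 from libraries 3 and 4 alone. The 50 most abundant genes held 32.1% of TPM on average, 24.9% once small and ribosomal RNA genes were left out, and 31.6% to 32.8% without each library. That rescaling raised named genes by 1.13-fold at the median. The median CV of 5.33% was 4.87% with that rescaling, 4.29% with median-of-ratios scaling, 6.70% and 3.98% with a mean of at least 1 or 50 TPM, 3.30% within libraries 1 and 2, 4.58% within libraries 3 and 4, and 3.66% to 5.75% without each library, lowest without library 3.

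The 21 genes at least 1.5-fold higher in libraries 1 and 2 became 122 with a mean of at least 1 TPM, 1 at 50 TPM, and 25 to 41 without each library, where 41 came without library 3 and 33 without library 4. The 4 genes higher in libraries 3 and 4 became 0 without small RNA genes, since all 4 are small RNA genes, 43 at 1 TPM, 0 at 50 TPM, 8 at the smaller fold tried, 1 at 2-fold, and 6 to 23 without each library, with 23 without library 1 and 12 without library 2 or 3. Leaving out a library can only keep or raise the fold of a gene, so the rises without a library are in part built into the rule. These small counts rest on few genes. Without depth, values near 0 cannot be told from 0, so levels under 1 TPM are given as listed values only.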

Other observations

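The tissue genes that set control libraries 1 and 2 apart were read in the 2 GAFCP libraries as well. The major urinary proteins summed to 0.145 and 0.308 TPM there, the liver enzymes and lipid-binding genes to 0.823 and 1.24 TPM, and the defensins to 0 in both. The other intestinal genes summed to 1.16 and 1.49 TPM, the adipose genes to 9.93 and 10.04 TPM, and the myelin and neuronal genes to 37.7 and 36.4 TPM. For the urinary proteins, liver enzymes and defensins, both GAFCP libraries thus lay far below control libraries 1 and 2. Ckm and Myh6, which were higher in control libraries 3 and 4, were at 3.19 and 7.82 TPM and at 1.21 and 1.51 TPM in the GAFCP libraries. The liver plasma carriers and apolipoproteins summed to 3200.2 and 3128 TPM, above all 4 control libraries (1277, 1457, 1039.9 and 1074 TPM), mostly from Apoe at 2818 and 2742 TPM, while Alb was at 0 in both and Apoa2 at 2.33 and 1.99 TPM. A group of kidney, lung and testis genes summed to 2.10, 1.04, 1.24 and 0.743 TPM in the 4 control libraries and did not follow the pairs.

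The 84 genes at least 4-fold higher in control libraries 1 and 2 included genes typical of several organs, and their source was not tested. Beside the genes named above they held Cyp2e1, a liver cytochrome, at 7.39, 10.7, 0.528 and 0.825 TPM, Serpina1a, an alpha-1-antitrypsin gene, at 3.28, 4.53, 0.434 and 0.707 TPM, Hamp, which encodes the iron hormone hepcidin, at 9.56, 16.6, 0 and 0.427 TPM, and Defa24 at 19.3, 16.7, 0 and 0 TPM. Gfap, of astrocytes, was at 1.24, 3.40, 0.100 and 0.103 TPM, Nefl, of neurons, at 2.53, 1.70, 0.101 and 0.0347 TPM, and Car3, of fat and muscle, at 6.73, 4.89, 0.788 and 0.667 TPM. Each was higher in both of the first 2 libraries than in either of the others, which the 4-fold rule that picked these genes requires.

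Among small RNA genes other than Mir6236, Mir3473f was at 74.9, 93.5, 22.03 and 37.6 TPM and Mir3060 at 49.3, 49.2, 24.5 and 17.7 TPM, both higher in libraries 1 and 2. Mir7237 was at 14.7, 3.63, 38.4 and 27.4 TPM and Mir7045 at 7.34, 7.26, 17.7 and 15.2 TPM, both higher in libraries 3 and 4. Their mature sequences in RefSeq, with the seed in capitals, are printed to show that no seed is shared among them.
mmu-miR-3473f: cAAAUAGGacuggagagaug
mmu-miR-3060-5p: gGGAGUGCuucgugcuucug
mmu-miR-3060-3p: cCAUAGCAcagaagcacuccca
mmu-miR-7237-5p: aUGGUAGCuugugacaggacuggc
mmu-miR-7237-3p: cAUCCUGUugagcuuaccgagc
mmu-miR-7045-5p: aGCGGGUGggggagggggacu
mmu-miR-7045-3p: uCUCCCCCcucccccgcacag
The CV over the 4 libraries was 57.8% for Mir3473f, 46.8% for Mir3060, 71.9% for Mir7237 and 45.4% for Mir7045, beside a median of 33.99% over the 125 small RNA genes of at least 10 TPM. Mir7045 and another microRNA gene, Mir7664, had identical values in library 1 (7.34 TPM) and in library 2 (7.26 TPM). Read numbers are not known, and values of genes this short may rest on few reads. The levels also do not show how much mature microRNA the cells held.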
